A study of Mus musculus with 12 samples.

Results

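Matrix metalloproteinases (Mmp) are enzymes that cut collagens, basement membrane proteins and cell surface proteins, and tissue inhibitors of metalloproteinases (Timp) block them. The genes described here are 6 proteases (Mmp2, Mmp3, Mmp7, Mmp9, Mmp11 and Mmp14) and 3 inhibitors (Timp1, Timp2 and Timp3), chosen by name. They are 9 of the 55487 gene IDs of the deposited gene table, each with 1 row, and all 9 were among the 19890 genes with enough counts to be tested. There were 12 RNA libraries of whole mouse kidneys, all taken on postnatal day 15 and forming 4 groups of 3. The groups are Pkd1 KO (homo titles of the Hoxb7-Pkd1 line, genotype label Pkd1 KO), Pkd1 controls (het titles of that line, genotype label WT), Cep120 KO (homo titles of the Hoxb7-Cep120 line, genotype label Cep120 KO) and Cep120 controls (het titles of that line, genotype label WT). The series sets the pathways disturbed in cystic and fibrotic kidneys after loss of Cep120, a centriole protein, beside those after loss of Pkd1, which encodes the ciliary protein polycystin-1. The labels name neither strain nor sex.

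Matrix proteases are made as inactive precursors, and most are activated outside the cell by other proteases. Mmp14, which sits in the cell membrane, activates the Mmp2 precursor in a complex that also holds Timp2, so that Timp2 takes part in activation as well as in inhibition. In the kidney these genes are known from matrix turnover during development and from fibrosis and cyst growth, where stromal cells, macrophages and injured tubule cells are among the sources. Cre driven by Hoxb7 works in the collecting duct and its ureteric bud precursor, so cells of a whole kidney outside this lineage keep the targeted gene. Their share in these kidneys was not measured. Cep120 averaged 17.9 ± 2.16 CPM (counts scaled to library size) in Cep120 KO and 16.2 ± 2.5 CPM in Cep120 controls, and Pkd1 28.8 ± 6.69 CPM in Pkd1 KO and 17.2 ± 4.0 CPM in Pkd1 controls (SD, n = 3 each). Neither targeted gene was lower in its KO libraries, so the groups rest on the labels.

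Some libraries stood apart, and this touches several results below. Library totals were 23070688 to 31837958 counts. A count was found for 30321 to 32740 genes in 6 libraries (Pkd1 control 3, Cep120 controls 1 and 2 and every Cep120 KO) and for 23544 to 25665 genes in the remaining 6. Xist, which silences an X chromosome in females, was under 1 CPM in every Pkd1 KO library and in Cep120 KO 1 and 2, and at 50 to 184 CPM in the other 7. The summed RNA of 4 Y-linked genes (Ddx3y, Eif2s3y, Kdm5d and Uty) was at 135 to 147 CPM in Pkd1 KO libraries and under 1 CPM in Pkd1 controls 1 and 2. Both kinds of RNA were present in Pkd1 control 3 (Y-linked 96.9 CPM, Xist 50 CPM), Cep120 KO 3 (16.6 and 184 CPM), Cep120 control 1 (28.3 and 59.8 CPM) and Cep120 control 2 (12 and 128 CPM). In the Pkd1 line the lack of Xist and the knockout therefore cannot be told apart. Pkd1 control 3 was the highest of its group for 6 of the 9 genes, and Cep120 KO 2 for 7 of the 9. Whether libraries of a group stem from different animals is not labelled, and p-values here reflect spread among libraries only. In whole kidney, more cells of a type and more RNA per cell cannot be told apart.

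The promoters of Mmp3, Mmp7 and Timp1 are shown because these genes had the 3 largest log2 fold changes in Pkd1 KO kidneys. Each window runs from 250 bases before to 50 after the start site in RefSeq on the GRCm38.p6 build, on the plus strand. The submitters' processing notes name mm9, so these coordinates belong to the RefSeq table and not to the deposited files. Capitals mark TGANTCA, the letters of an AP-1 site, which Jun and Fos proteins bind. They also mark TATAAA, which the basal transcription machinery can bind.
Mmp3, chr9:7445572-7445871: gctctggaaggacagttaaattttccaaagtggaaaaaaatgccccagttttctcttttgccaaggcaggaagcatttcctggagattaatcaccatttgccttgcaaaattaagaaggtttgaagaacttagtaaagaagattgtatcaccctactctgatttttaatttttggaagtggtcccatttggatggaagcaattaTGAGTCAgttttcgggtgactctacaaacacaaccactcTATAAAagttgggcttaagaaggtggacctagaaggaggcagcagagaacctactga
Mmp7, chr9:7691840-7692139: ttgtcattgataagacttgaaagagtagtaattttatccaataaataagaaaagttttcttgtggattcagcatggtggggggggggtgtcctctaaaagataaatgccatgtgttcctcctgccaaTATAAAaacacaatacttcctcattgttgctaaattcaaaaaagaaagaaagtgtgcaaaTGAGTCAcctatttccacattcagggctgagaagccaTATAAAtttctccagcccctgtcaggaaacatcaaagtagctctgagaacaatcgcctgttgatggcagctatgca
Timp1, chrX:20869916-20870215: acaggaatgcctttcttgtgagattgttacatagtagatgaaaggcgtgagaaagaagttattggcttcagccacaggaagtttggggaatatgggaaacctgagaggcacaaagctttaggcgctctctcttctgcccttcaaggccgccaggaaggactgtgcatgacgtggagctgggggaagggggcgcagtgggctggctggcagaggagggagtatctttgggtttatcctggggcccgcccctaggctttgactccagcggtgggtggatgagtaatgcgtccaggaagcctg
The AP-1 letters read the same on both strands, and TATAAA was searched on the gene's own strand. In Mmp3 the AP-1 letters lie 46 bases and TATAAA 7 bases before the start site. In Mmp7 the AP-1 letters lie 63 bases before it, and TATAAA lies 26 and 123 bases before it. Timp1 held neither in this window, and neither did the windows of Mmp11, Mmp14, Timp2 and Timp3 or that of a further Mmp7 start. Of 32851 windows of 300 bases in the table, 7.81% held the AP-1 letters and 8.32% held TATAAA. Windows were found for 7 of the 9 genes.

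In Pkd1 KO kidneys, 5 of the 6 proteases and 2 of the 3 inhibitors were higher than in Pkd1 controls. Mmp7, the matrilysin of epithelial cells, showed the largest rise, then Mmp3 and Timp1, at 19.6-fold, 9.98-fold and 9.62-fold. Mmp2, Mmp14 and Timp2 rose by similar factors of 3.50, 3.21 and 3.10, and Mmp11 rose 1.94-fold. Mmp9 and Timp3 did not pass the test. Passing means a Benjamini-Hochberg adjusted p under 0.05 in edgeR's quasi-likelihood test, fitted to all 12 libraries. The Pkd1 comparison called 44.2% of all genes tested, 21.9% as higher and 22.3% as lower, so that calls among these genes stand against a background of many calls. The median log2 fold change was 1.68 over the 9 genes and -0.04 over all genes. With the presence of Xist as a term in the fit, 2 of the 9 genes passed, Mmp2 and Timp2. Calls over all 19890 genes came to 2051, against 8796 without the term. Only the Cep120 KO group held libraries of both states, so the term was set by Cep120 KO 3 against Cep120 KO 1 and 2. Such a fit cannot separate the lack of Xist from the knockout in the Pkd1 line. In that fit the estimates were 3.84 for Mmp3 (adjusted p = 0.0839), 1.98 for Mmp7 (0.518), 0.86 for Mmp11 (0.0552), 1.30 for Mmp14 (0.0913), 1.23 for Timp1 (0.646) and -0.30 for Mmp9 (0.877).

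**Figure D1:**
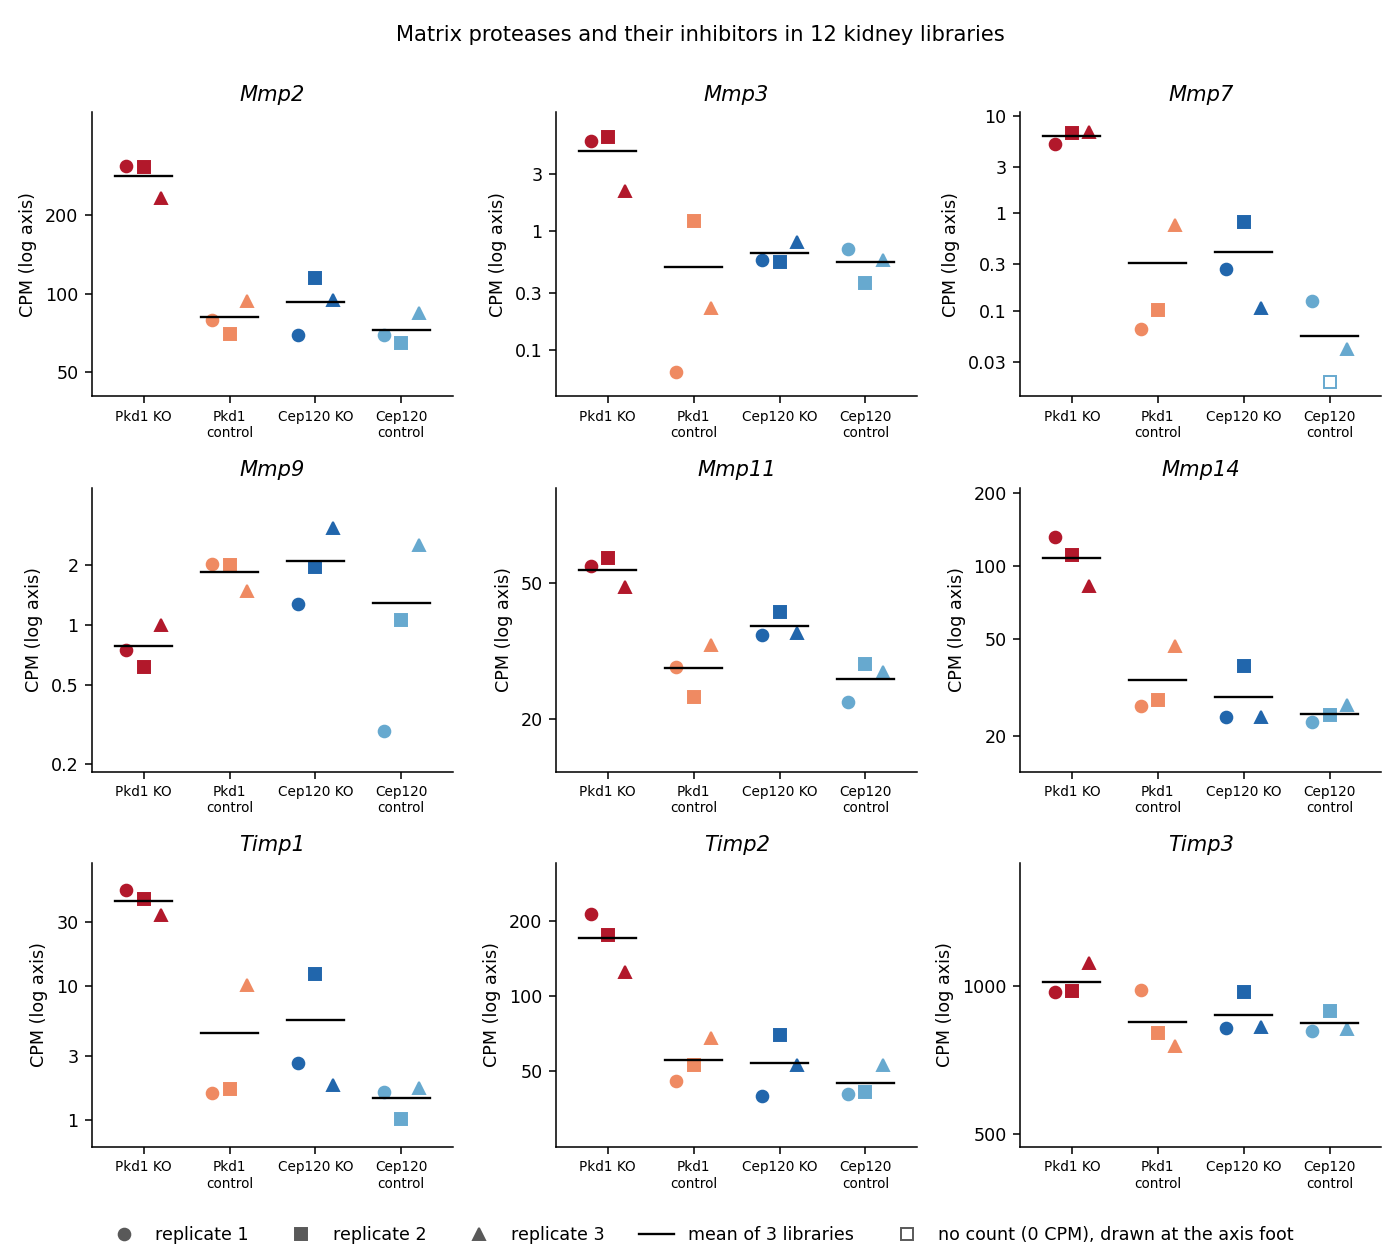
Level of each gene in every library, in CPM on a log axis, with a bar at the mean of 3 libraries and marker shapes for the replicate number. The Pkd1 KO libraries lie above all other libraries for Mmp2, Mmp3, Mmp7, Mmp11, Mmp14, Timp1 and Timp2, and Pkd1 control 3 and Cep120 KO 2 lie above their own groups for Timp1 and Mmp7.

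Mmp2, gelatinase A, cuts denatured collagen and the type IV collagen of basement membranes. It was at 311, 308 and 234 CPM in Pkd1 KO 1 to 3, against 79.6, 70.2 and 94.2 CPM in Pkd1 controls 1 to 3. The groups were far apart, and Pkd1 KO 3 was the lowest of its own. On the log2 scale Mmp2 rose by 1.81 (SE 0.189, adjusted p = 5.97e-06). In Cep120 KO 1 to 3 it was at 69.4, 114.7 and 94.4 CPM, against 69.7, 64.5 and 84.1 CPM in Cep120 controls 1 to 3. These groups overlapped through Cep120 KO 1, and the log2 fold change was 0.35 (SE 0.184, adjusted p = 0.768).

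Mmp9, gelatinase B, is made mainly by neutrophils and macrophages and had at most 86 counts in any library. It was at 0.745, 0.612 and 1.005 CPM in Pkd1 KO 1 to 3, against 2.02, 2.01 and 1.47 CPM in Pkd1 controls 1 to 3. Every Pkd1 KO library lay below every Pkd1 control, on 19 to 28 counts in Pkd1 KO and 39 to 62 counts in Pkd1 controls. The log2 fold change was -1.22 (SE 0.564, adjusted p = 0.094), which misses the threshold. Over the other settings the estimate ran from -1.60 to -0.30 and the adjusted p from 0.0139 to 0.877, and Mmp9 passed as lower in 6 of them. In the Cep120 line the levels were 1.27, 1.95 and 3.05 CPM in Cep120 KO and 0.294, 1.06 and 2.52 CPM in Cep120 controls, and the groups overlapped over most of their range.

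Mmp3, stromelysin 1, cuts many matrix proteins and other protease precursors. Its levels were low, at 5.69, 6.22 and 2.15 CPM in Pkd1 KO 1 to 3 and at 0.0651, 1.21 and 0.227 CPM in Pkd1 controls 1 to 3. The lowest Pkd1 KO library was still above the highest Pkd1 control, and the controls themselves spread widely, on 2, 24 and 6 counts. Mmp3 rose by 3.32 on the log2 scale (SE 0.721, adjusted p = 0.00242), and by 5.0 without Pkd1 control 2. In Cep120 KO it was at 0.577, 0.553 and 0.816 CPM, against 0.714, 0.366 and 0.568 CPM in Cep120 controls. KO over control, this was 0.24 on the log2 scale (SE 0.722, adjusted p = 0.947).

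Mmp11, stromelysin 3, cuts serpins more readily than matrix proteins and is activated inside the cell by furin. It was at 56.0, 59.1 and 48.6 CPM in Pkd1 KO 1 to 3 and at 28.3, 23.2 and 32.9 CPM in Pkd1 controls 1 to 3. The groups did not overlap, and the rise of 0.95 on the log2 scale (SE 0.143, adjusted p = 0.000117) was the smallest, with the smallest SE, of the 7 that passed. In Cep120 KO 1 to 3 it was at 35.2, 40.9 and 35.7 CPM, against 22.5, 28.9 and 27.4 CPM in Cep120 controls 1 to 3. All Cep120 KO libraries lay above all Cep120 controls, yet the log2 fold change of 0.50 (SE 0.143, 95% interval 0.20 to 0.81) had an adjusted p of 0.768.

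Mmp7, matrilysin, lacks the hemopexin domain of the other proteases here and cuts surface proteins such as E-cadherin. It had 5.08, 6.70 and 6.75 CPM in Pkd1 KO 1 to 3, against 0.0651, 0.1 and 0.756 CPM in Pkd1 controls 1 to 3. Counts were 150 to 208 in Pkd1 KO libraries and 2, 2 and 20 in Pkd1 controls, so that Pkd1 control 3 held most of the control counts. Mmp7 rose by 4.29 on the log2 scale (SE 0.808, adjusted p = 0.00104), and by 6.17 without Pkd1 control 3. In Cep120 KO 1 to 3 there were 7, 25 and 3 counts, against 3, 0 and 1 counts in Cep120 controls. The estimate of 2.77 on the log2 scale (SE 1.12, adjusted p = 0.768) did not pass, and it was 1.68 without Cep120 KO 2, the library with the most counts.

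Mmp14, a membrane-bound collagenase and activator of Mmp2, was at 131.8, 111 and 82.8 CPM in Pkd1 KO 1 to 3, against 26.6, 28.2 and 46.8 CPM in Pkd1 controls 1 to 3. The ranges were apart, although Pkd1 control 3 was at 1.71 times the mean of the other 2 controls. Mmp14 rose by 1.68 on the log2 scale (SE 0.254, adjusted p = 0.000242). In the Cep120 line it was at 23.9, 38.7 and 24.0 CPM in Cep120 KO, against 22.8, 24.4 and 26.9 CPM in Cep120 controls. Only Cep120 KO 2 lay above the controls, and the log2 fold change of 0.22 (SE 0.252, adjusted p = 0.843) became -0.05 without it.

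Timp1, a secreted inhibitor that is induced in injured and inflamed tissue, was at 52.0, 44.7 and 33.8 CPM in Pkd1 KO 1 to 3. In Pkd1 controls 1 to 3 it was at 1.6, 1.71 and 10.2 CPM. Pkd1 control 3 was thus at 6.15 times the mean of the other 2 controls, though below every Pkd1 KO library. The log2 fold change was 3.27 (SE 0.892, adjusted p = 0.0167). It was 4.69 without Pkd1 control 3, and the call ended without Pkd1 control 1 (adjusted p = 0.0511) or Pkd1 control 2 (adjusted p = 0.0538). In Cep120 KO 1 to 3 Timp1 was at 2.69, 12.4 and 1.85 CPM, against 1.64, 1.02 and 1.74 CPM in Cep120 controls 1 to 3. Every Cep120 KO library was above every Cep120 control, but Cep120 KO 2 carried most of the difference. The estimate of 1.95 on the log2 scale (SE 0.948, adjusted p = 0.768) was 0.62 without Cep120 KO 2.

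Timp2, the inhibitor that also helps Mmp14 activate Mmp2, was at 214.5, 176 and 125 CPM in Pkd1 KO 1 to 3, against 45.6, 52.8 and 68.0 CPM in Pkd1 controls 1 to 3. The groups did not overlap, and the log2 fold change was 1.63 (SE 0.238, adjusted p = 0.000151). In Cep120 KO it was at 39.7, 69.9 and 52.7 CPM, against 40.3, 41.0 and 53.0 CPM in Cep120 controls. This amounts to 0.27 on the log2 scale (SE 0.234, adjusted p = 0.808).

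Timp3, the inhibitor that binds to the matrix and also blocks Adam and Adamts proteases, did not pass the test in either line. It was at 972, 976 and 1112 CPM in Pkd1 KO 1 to 3, against 980.4, 803 and 755 CPM in Pkd1 controls 1 to 3. Pkd1 control 1 lay among the Pkd1 KO libraries, and the log2 fold change was 0.27 (SE 0.138, 95% interval -0.03 to 0.56, adjusted p = 0.125). With limma on the deposited log2 CPM it passed (log2 fold change 0.37, adjusted p = 0.0413). In Cep120 KO it was at 824, 973 and 828 CPM, against 811, 891 and 817 CPM in Cep120 controls. This amounts to 0.06 on the log2 scale (SE 0.138, 95% interval -0.24 to 0.35, adjusted p = 0.931).

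Timp1 and Timp3 each lie inside an intron of a synapsin gene on the opposite strand. The sources used here do not state if strand was used in counting. Reads of synapsin RNA that still holds the intron therefore cannot be told apart from reads of Timp1 and Timp3. The synapsin genes had few counts, with Syn1, the host of Timp1, at 0.404 ± 0.334 CPM in Pkd1 KO and 0.0795 ± 0.0815 CPM in Pkd1 controls, and Syn3, the host of Timp3, at 6.79 ± 0.58 and 8.84 ± 0.228 CPM in the same groups.

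**Figure D2:**
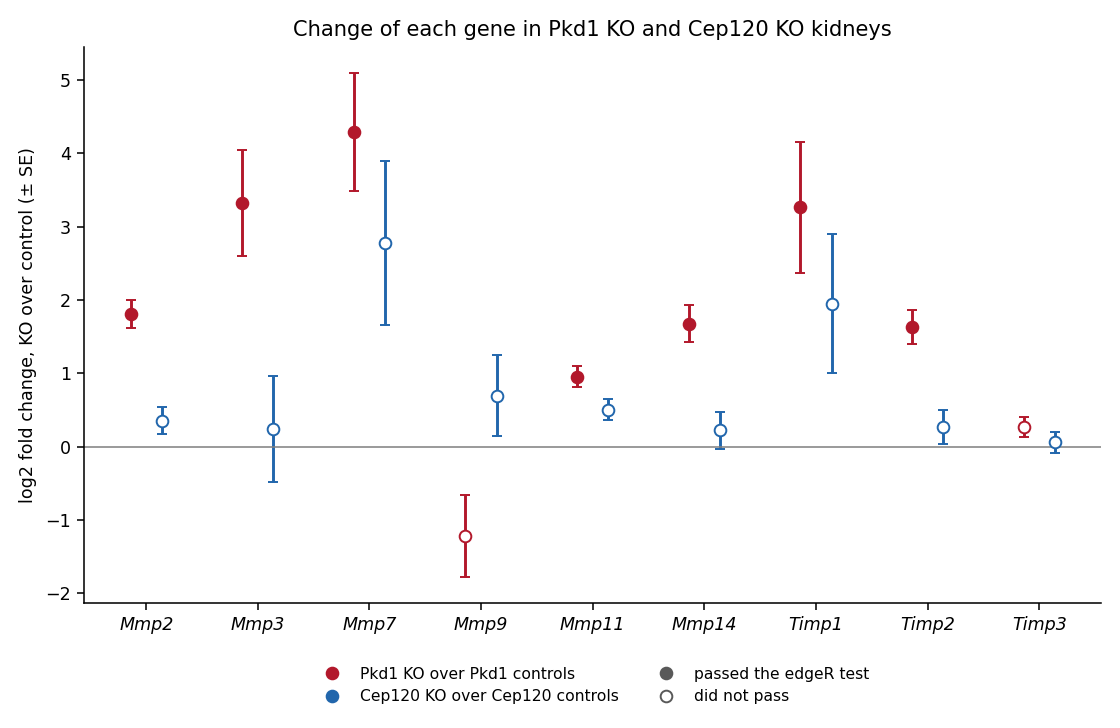
Log2 fold change of each gene, KO over control, with its SE, in the Pkd1 line and the Cep120 line, from 3 libraries a group. In the Pkd1 line 7 genes passed the edgeR test (filled), all higher in Pkd1 KO, and in the Cep120 line none of the 9 passed (open).

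In Cep120 KO kidneys none of the 9 genes passed the test, and neither did any other gene, the comparison calling 0% of genes. An unadjusted p under 0.05 was found for 1163 genes in edgeR, voom called 0 genes and DESeq2 called 21. Estimates were positive for all 9 genes, with a median of 0.35 against 0.01 over all genes tested, and adjusted p-values were 0.768 to 0.947. Mmp11 and Timp1 were the 2 genes whose Cep120 KO libraries all lay above the controls, a separation in either direction that 16.5% of all genes tested showed. In the Pkd1 line, 7 of the 9 genes lay wholly above and Mmp9 wholly below the controls, where 53% of all genes tested were separated in one direction or the other.

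The difference between the effects, Pkd1 minus Cep120, was tested in the same fit, where 28% of all genes tested were called, 13.8% as higher and 14.2% as lower. Higher calls made up 49.3% of all calls, and 39.2% with upper quartile scaling, which moved the median of all genes to -0.17. The test passed for 4 of the 9 genes, all higher. The difference was 1.46 for Mmp2 (effects of 1.81 and 0.35, SE 0.261, adjusted p = 0.00122), 1.46 for Mmp14 (1.68 and 0.22, SE 0.355, adjusted p = 0.0105) and 1.36 for Timp2 (1.63 and 0.27, SE 0.332, adjusted p = 0.00967). For Mmp3 it was 3.08 (3.32 and 0.24, SE 1.01, adjusted p = 0.0385), a call that ended in 13 of 22 other settings, among them each fit without 1 of the Cep120 libraries. Mmp7 and Timp1, with wide intervals, did not pass (1.52, 95% interval -2.14 to 5.18, and 1.32, 95% interval -1.58 to 4.22). Mmp9 (-1.91, adjusted p = 0.0834), Mmp11 (0.45, adjusted p = 0.106) and Timp3 (0.21, adjusted p = 0.439) did not pass either, though Mmp9 passed as lower in 5 other settings and Mmp11 as higher without Pkd1 control 3 (0.55, adjusted p = 0.0455).

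Set over the 4 groups, Pkd1 KO had the highest mean of Mmp2, Mmp3, Mmp7, Mmp11, Mmp14, Timp1 and Timp2, with no overlap with the next group. Between Pkd1 KO and Pkd1 controls alone, 53% of all genes tested did not overlap, in either direction. The share of all genes with Pkd1 KO clear of every other group was not counted. Below Pkd1 KO the neighbouring groups overlapped for each of the genes named but Mmp11, where the Cep120 KO libraries also lay above all Pkd1 controls. For Timp3 every pair of neighbours overlapped. For Mmp9 the order was Cep120 KO at 2.09 ± 0.900 CPM, Pkd1 controls at 1.83 ± 0.312 CPM, Cep120 controls at 1.29 ± 1.13 CPM and Pkd1 KO at 0.787 ± 0.2 CPM (SD, n = 3 each), and neighbours overlapped throughout. Between the 2 control groups the test called 0% of genes and none of these 9, with an unadjusted p under 0.05 for 778 genes in edgeR and 0 calls in DESeq2. The widest estimates there, Pkd1 controls over Cep120 controls, were 2.41 for Mmp7 and 1.62 for Timp1, and they were 0.52 and 0.18 without Pkd1 control 3.

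Levels of different genes were set side by side in the deposited TPM, a level per transcript length. Timp3 was the most abundant of the 9 in every group, at 287 ± 26.8 TPM in Pkd1 KO, 205 ± 41.1 TPM in Pkd1 controls, 248 ± 39.3 TPM in Cep120 KO and 209 ± 20.2 TPM in Cep120 controls (SD, n = 3 each). Mmp2 came next, at 139 ± 29.4 TPM in Pkd1 KO, 34.9 ± 11.9 TPM in Pkd1 controls, 43.5 ± 13.5 TPM in Cep120 KO and 30.3 ± 2.49 TPM in Cep120 controls. Timp1 was the third in Pkd1 KO at 73.7 ± 16.1 TPM and the sixth in the other 3 groups, at 7.27 ± 8.70 TPM in Pkd1 controls, 9.81 ± 10.7 TPM in Cep120 KO and 2.13 ± 0.497 TPM in Cep120 controls. Mmp3, Mmp7 and Mmp9 were at most 8.15 TPM on average in any group.

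Inhibitor RNA exceeded protease RNA in every library. The 6 proteases summed to 283, 244 and 193 TPM in Pkd1 KO 1 to 3, against 66.0, 46.5 and 94.4 TPM in Pkd1 controls 1 to 3. The 3 inhibitors summed to 446, 398 and 420 TPM in Pkd1 KO, against 260, 177 and 250 TPM in Pkd1 controls. The ratio of proteases to inhibitors was 0.635, 0.615 and 0.459 in Pkd1 KO 1 to 3, against 0.254, 0.263 and 0.378 in Pkd1 controls 1 to 3. All Pkd1 KO ratios were above all control ratios, with Pkd1 KO 3 and Pkd1 control 3 the nearest to each other. Timp3 made up 62.5 to 75.6% of the inhibitor sum in Pkd1 KO and 83.5 to 93.5% in Pkd1 controls. Both the higher ratio and the excess of inhibitor RNA thus rest on Timp3. In the Pkd1 line neither holds for Timp1 and Timp2 without it. In the Cep120 line the ratio was 0.277, 0.321 and 0.321 in Cep120 KO, against 0.257, 0.235 and 0.297 in Cep120 controls, and these ranges overlapped.

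**Figure D3:**
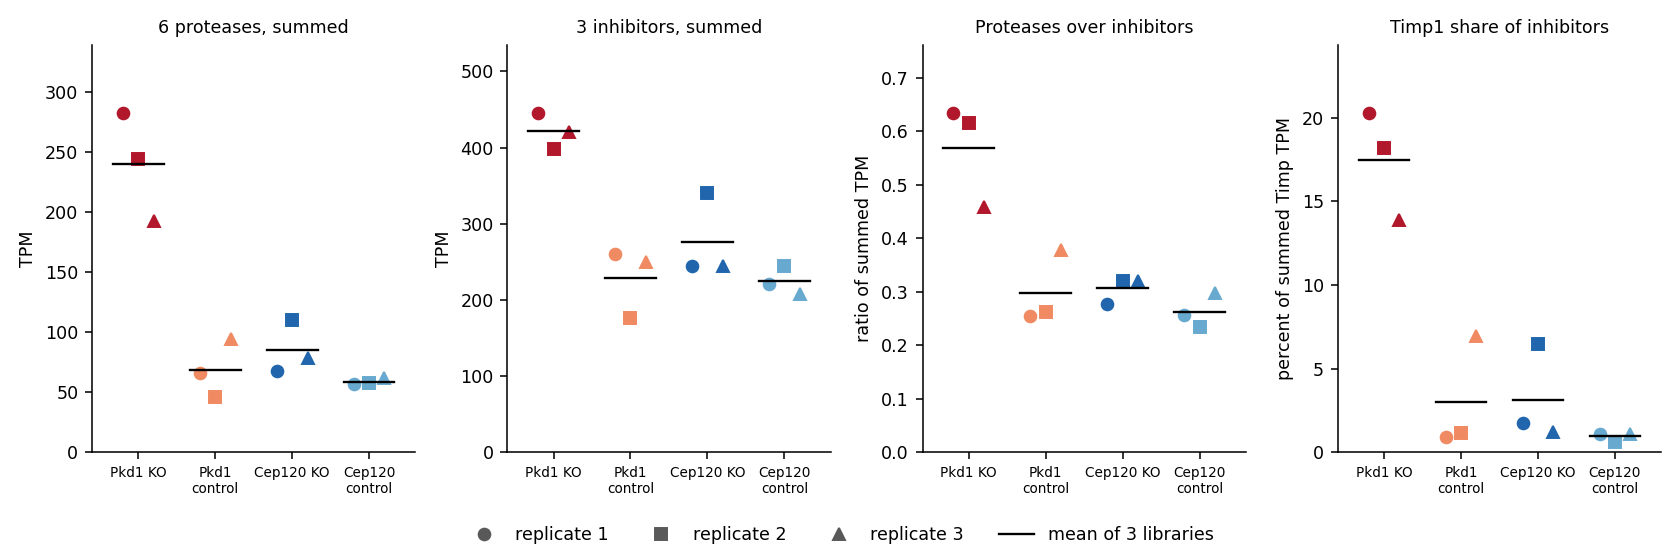
Summed TPM of the 6 proteases and of the 3 inhibitors, the ratio of the sums, and the share of Timp1 in the inhibitor sum, for each library, with a bar at the mean of 3. The Pkd1 KO libraries are highest in all 4 panels, and the ratio stays under 1 in every library.

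The make-up of the inhibitor RNA also differed between Pkd1 KO and Pkd1 controls. Timp1 made up 20.3, 18.2 and 13.9% of the summed inhibitor TPM in Pkd1 KO 1 to 3, against 0.944, 1.15 and 6.93% in Pkd1 controls 1 to 3. Timp3 made up 68.3 ± 6.66% in Pkd1 KO and 89.4 ± 5.24% in Pkd1 controls, and Timp2 14.2 ± 3.39% and 7.55 ± 2.01% in the same groups (SD, n = 3 each). Within the activation complex, Mmp2 over Timp2 was 2.35 ± 0.148 in Pkd1 KO and 2.03 ± 0.348 in Pkd1 controls, and Mmp14 over Timp2 was 0.933 ± 0.0361 and 0.883 ± 0.112 in the same groups. Neither pair ratio was separated (exact permutation tests over libraries, two-sided, p = 0.2 and p = 0.5). Mmp2 over Timp3 was 0.492 ± 0.134 in Pkd1 KO and 0.17 ± 0.0475 in Pkd1 controls, with p = 0.1 in the same exact permutation test, the smallest that 3 against 3 libraries can give. Adjusted over the 6 pair ratio tests of both lines, these p-values were 0.6, 0.75 and 0.6.

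Annotated transcripts could be followed for 7 of the genes, since the transcripts listed held 10.3 to 44.2% of the TPM of Mmp11 and 0.301 to 2.89% of that of Timp3. Mmp2 came mostly from its protein-coding form Mmp2-201, which made up 77.6 ± 7.44% of its TPM in Pkd1 KO and 80.5 ± 5.48% in Pkd1 controls. Timp1 was split between the protein-coding forms Timp1-201 and Timp1-202, at 55.2 ± 4.20% and 44.8 ± 4.20% in Pkd1 KO and at 41.2 ± 35.8% and 58.8 ± 35.8% in Pkd1 controls. Mmp9 showed a difference in form, with the protein-coding Mmp9-201 at 99.9 to 100% of its TPM in Pkd1 KO libraries and at 39.1 to 64.6% in Pkd1 controls. The remainder in Pkd1 controls was the processed transcript Mmp9-204, at 35.5 to 60.9%. Mmp9-204 was at 0 TPM in every Pkd1 KO library, and also in Cep120 KO 2 and 3 and in Cep120 controls 1 and 2. It made up 39.8% in Cep120 KO 1 and 32.3% in Cep120 control 3, so its absence was not particular to Pkd1 KO. By counts in place of TPM, Mmp9-204 made up 22.1% in Pkd1 controls. The Mmp9 shares rest on the few counts given above, and no transcript share was tested.

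Other proteases and their partners give the surroundings of these changes, counted over the Pkd1 comparison. Of 18 genes, the other Mmp genes and Timp4, 11 could be tested, and edgeR called 3 higher and 2 lower, with a median log2 fold change of 0.23. That is 45.5% called, near the 44.2% of all genes tested. Mmp23 (48.8 ± 7.27 CPM in Pkd1 KO and 11.9 ± 2.06 CPM in Pkd1 controls), Mmp17 and Mmp19 rose by 2.03, 1.81 and 1.90 on the log2 scale. Mmp16, a membrane-bound relative of Mmp14, was lower, at 0.606 ± 0.217 CPM in Pkd1 KO and 3.75 ± 0.676 CPM in Pkd1 controls. The Adam and Adamts proteases, which shed surface proteins and cut proteoglycans, had 9 of 26 higher and 6 lower and a median of 0.27, against 21.9% higher and 22.3% lower over all genes tested. Adamts1 (log2 fold change 1.46), Adamts4 (1.95) and Adam9 (0.88) rose, and Adamts15 was lower at 3.97 ± 1.13 CPM in Pkd1 KO against 18.9 ± 0.226 CPM in Pkd1 controls.

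Plasminogen activation, which feeds the activation of several matrix proteases, had 9 of 15 genes higher and 5 lower and a median of 0.51. Over all genes tested 21.9% were higher and 22.3% lower. The genes named from this list and the next are those of smallest p, and all of them were higher. Plaur, the urokinase receptor, was higher (log2 fold change 1.34, SE 0.157), as were Anxa2, which binds plasminogen at the cell surface (1.26, SE 0.126), the membrane protease St14 (1.16, SE 0.120) and the inhibitor Serpine2 (1.10, SE 0.143). Of 14 regulators and partners of these proteases 7 were higher and 5 lower, with a median of 0.66. Thbs1, a matrix protein that binds proteases, was at 456 ± 134 CPM in Pkd1 KO against 56.1 ± 14.7 CPM in Pkd1 controls (log2 fold change 3.02, SE 0.310). Lrp1, a receptor that takes up proteases and their complexes, rose by 1.77 (SE 0.285), the proprotein convertase Pcsk5 by 0.98 (SE 0.166) and the integrin chain Itgb1 by 0.75 (SE 0.128).

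Substrates were nearly all higher. Of 22 genes for matrix and surface proteins that these enzymes cut, 19 passed as higher and 0 as lower. Over all genes tested 21.9% were higher and 22.3% lower. The median log2 fold change of the 22 genes was 1.26. Eln, elastin, was at 446 ± 79.4 CPM in Pkd1 KO and 77.1 ± 6.06 CPM in Pkd1 controls (log2 fold change 2.53, SE 0.221). Lama5, a basement membrane laminin chain, rose by 1.90 (SE 0.141), the proteoglycan Bgn by 1.81 (SE 0.22) and E-cadherin, Cdh1, by 1.31 (SE 0.132). In the Cep120 comparison none of these 5 lists had a gene that passed, and their medians were -0.02 to 0.29.

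**Figure D4:**
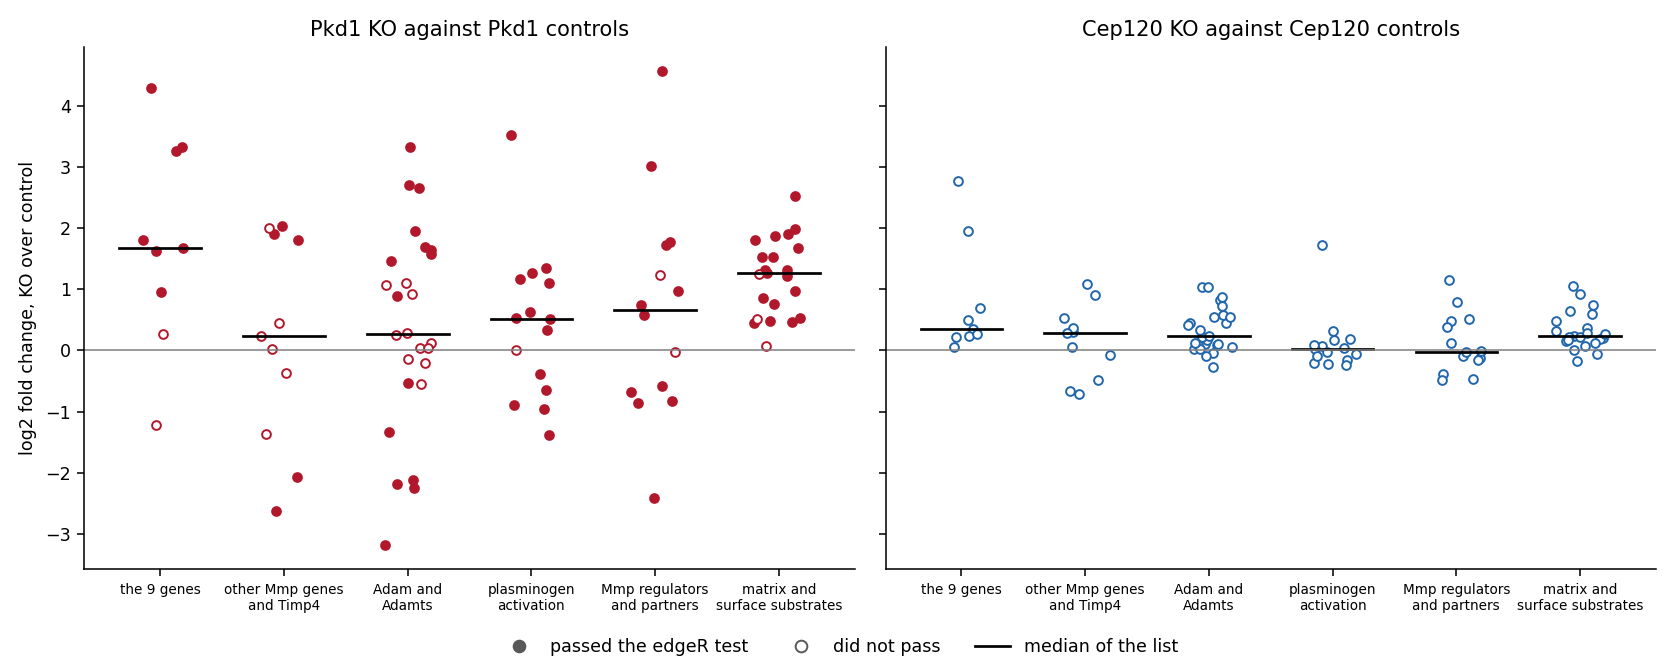
Log2 fold change, KO over control, of every tested gene of the 9 and of 5 related lists, in the Pkd1 line (left) and the Cep120 line (right), with a bar at each list's median. In the Pkd1 line the substrate list lies above 0 and 19 of its 22 genes passed (filled), while the other 4 related lists spread to both sides. In the Cep120 line no gene passed (open).

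Markers of many cell types moved with these genes in the Pkd1 line, where 21.9% of all genes tested were called higher and 22.3% lower. Of 12 stromal cell markers 8 passed as higher and 1 as lower, with a median log2 fold change of 0.56. They summed to 3249 to 5098 CPM in Pkd1 KO and 1466 to 2266 CPM in Pkd1 controls, sums to which Col1a1 (1278 to 2236 CPM in Pkd1 KO and 287 to 667 CPM in Pkd1 controls) and Col3a1 (997 to 1619 CPM and 457 to 727 CPM in the same groups) gave the most. Of 12 macrophage markers 11 were higher, with a median of 2.51 and sums of 1284 to 1892 CPM in Pkd1 KO and 149 to 481 CPM in Pkd1 controls. Of 12 neutrophil markers Mpo, Elane and Ly6g were too low to be tested, and of the other 9 edgeR called 3 higher and 1 lower. The neutrophil sums were low but did not overlap, at 9.44 to 16.5 CPM in Pkd1 KO and 3.29 to 8.24 CPM in Pkd1 controls.

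Tubule markers moved in both directions. Of 12 injured tubule markers 10 were higher, with a median of 1.69 and sums of 14339 to 16293 CPM in Pkd1 KO and 4114 to 7752 CPM in Pkd1 controls. Spp1 gave the most to these sums, at 8748 to 10704 CPM in Pkd1 KO and 2927 to 5878 CPM in Pkd1 controls. Of 10 markers of collecting duct principal cells, which lie where Hoxb7 drives Cre, 9 were higher and 1 lower, and they summed to 2774 to 4588 CPM in Pkd1 KO and 961 to 1186 CPM in Pkd1 controls. All 10 proximal tubule markers were lower and summed to 519 to 774 CPM in Pkd1 KO and 3751 to 5921 CPM in Pkd1 controls. Of 10 markers each, 8 were lower for the loop of Henle with the distal tubule and 8 for endothelial cells, and 3 of 8 podocyte markers were lower. Adipose markers, 1 of 8 higher, summed to 7.70 to 645 CPM in Pkd1 KO and 77.6 to 545 CPM in Pkd1 controls. Calls thus came to 37.5% of podocyte and 12.5% of adipose markers, against 44.2% of all genes tested. No marker was at 0 in every library. Col1a1, Col3a1 and Dcn are in both the stromal and the substrate list, Spp1 in both the injured tubule and the substrate list, and Lcn2 in both the injured tubule and the regulator list. The part of these cell types in the levels of the 9 genes was not tested.

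The libraries that stood out for Timp1 and Mmp7 were also the highest of their groups for stromal and injured tubule markers. Cep120 KO 2 was at 2267 CPM for stromal markers and 8554 CPM for injured tubule markers, where Cep120 KO 1 and 3 were at 1394 and 1486 CPM and at 4545 and 3745 CPM. Its macrophage markers, at 375 CPM, lay between those of Cep120 KO 1 and 3, at 398 and 212 CPM. Pkd1 control 3 was at 2266 CPM for stromal markers and 7752 CPM for injured tubule markers, where Pkd1 controls 1 and 2 were at 1576 and 1466 CPM and at 4114 and 4840 CPM. Its macrophage markers, at 481 CPM, were also the highest of its group, with Pkd1 controls 1 and 2 at 149 and 202 CPM. Pkd1 KO 3, the lowest Pkd1 KO library for Mmp2, Mmp3, Mmp11, Mmp14, Timp1 and Timp2, was also the lowest of its group for stromal and macrophage markers.

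**Figure D5:**
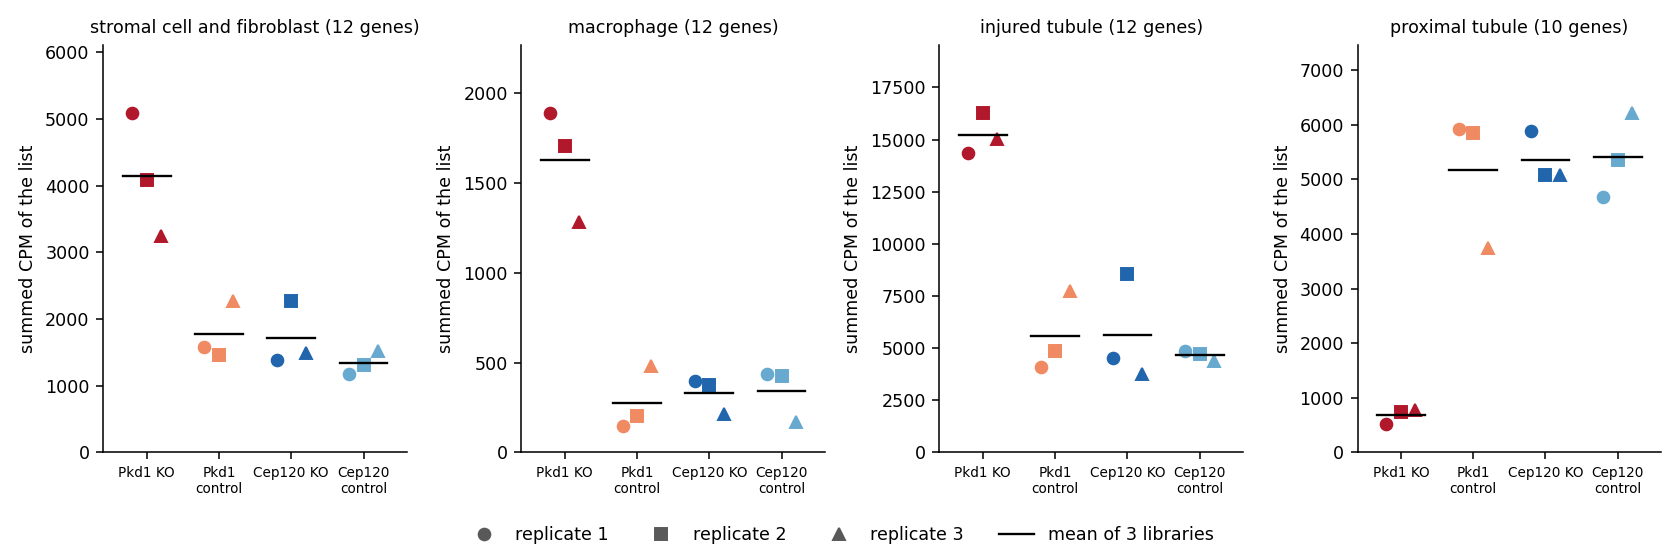
Summed CPM of 4 marker lists in every library, with a bar at the mean of 3. Stromal, macrophage and injured tubule markers are highest in the Pkd1 KO libraries and proximal tubule markers lowest, and Cep120 KO 2 and Pkd1 control 3 are the highest of their groups for stromal and injured tubule markers.

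For each of the 9 genes, the genes with the nearest pattern were found by the root mean square difference of log2 CPM over the 12 libraries, each gene centred on its own mean. Mmp2 was nearest to Bgn, a matrix proteoglycan, at 0.106, then to Msrb3 and Adam19, against a median of 0.812 over 12577 genes. Mmp14 was nearest to Anxa1, at 0.154, then to the collagen chain Col1a2 and to Timp2 at 0.159, and Timp2 was also nearest to Anxa1, at 0.120. Timp1 was nearest to Ltbp2, at 0.349, and Mmp7 to Timp1, at 0.473, and both had Ankrd1 and Socs3 among their 3 nearest. Mmp11 was nearest to Med15, at 0.134, and Timp3 to Map2k3, at 0.0683, where the patterns are nearly flat. The nearest genes to Mmp3 (Tfap2a, 0.744) and Mmp9 (Pcyox1l, 0.505) were farther away. These distances describe 12 libraries in which the Pkd1 KO group stands apart for many genes, and they carry no test.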

How the data were processed

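RNA of whole mouse kidneys was sequenced in 12 libraries. The authors deposited estimated counts per gene, of which 21.6% of genes hold a value that is not whole, together with TPM per gene and per transcript and log2 CPM per gene. Per the labels' protocols, tissue was ground in liquid nitrogen, RNA was taken up in Trizol, column purified and turned into cDNA (SMARTer Ultra Low). Tools listed without a role in the submitters' processing notes are Salmon 0.8.2, STAR 2.5.1a, featureCounts 1.4.6-p5 of Subread, and bcl2fastq, with mm9 as the build. Use of strand in counting is not stated there.

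From the 55774 lines of the gene table, 287 repeats were dropped. Counts were rounded, filtered with filterByExpr, scaled by TMM and fitted over all 12 libraries with edgeR 4.0.16 (robust quasi-likelihood, common biological coefficient of variation 0.238, R 4.3.3), with Benjamini-Hochberg adjustment over 19890 genes and a threshold of 0.05. CPM are TMM-scaled. Ratios used the deposited TPM, with exact permutation tests in scipy 1.17.1. Alternatives used DESeq2 1.42.0 and limma 3.58.1. The fitting steps were tested on simulated data.

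No 2 libraries of a group agreed within sampling noise. Cep120 controls 1 and 2 were the closest pair. Their mean squared difference per gene, over that of sampling noise, was 5.8, against 28.3 to 76.5 for the other pairs within groups. Same-numbered KO and control libraries did not deviate together in the Pkd1 line, with correlations of -0.136 to -0.0432. In the Cep120 line the correlations were 0.178 and 0.148 for numbers 1 and 3 and -0.054 for number 2. Replicate numbers were not used as a block in the main fit. The 9 genes and all lists were chosen with earlier results of these data known. Of each related list, the 4 tested genes with the smallest p in the Pkd1 comparison were named, and for pattern likeness the 3 nearest genes whose log2 CPM averaged 1 or more.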

Additional observations from a re-analysis of the deposited data

Results flagged for a closer look

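For 4 genes the effect of the Pkd1 knockout differed from that of the Cep120 knockout in a test of the difference itself (edgeR, Pkd1 minus Cep120, 3 libraries a group). The same test called 28% of all genes tested, 13.8% as higher and 14.2% as lower. The difference on the log2 scale was 1.455 for Mmp2, 1.456 for Mmp14, 1.36 for Timp2 and 3.08 for Mmp3. For Mmp2, Mmp14 and Timp2 all 3 Pkd1 KO libraries lay above all 3 Pkd1 controls, while the ranges of Cep120 KO and Cep120 controls overlapped. Over all genes tested, 53% were separated in one direction or the other in the Pkd1 line and 16.5% in the Cep120 line. For Mmp3, which had 60 to 193 counts in Pkd1 KO libraries and 2 to 24 counts in Pkd1 controls, the call ended in 13 of 22 other settings, with adjusted p-values of up to 0.123.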

How the results depend on the processing

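Of the 9 genes, the Pkd1 comparison called 7, all as higher. With each library left out in turn it called between 6 and 8 in either direction, and Mmp9, where called, was lower. It called 8 without both replicate 3 controls, Mmp9 being the added one, as lower. With Xist presence as a term, which the Cep120 KO libraries alone set, it called 2. The Cep120 comparison called 0 in every fit but the one with no filter on low counts, which called 2 (Mmp7 and Timp1, among 344 genes called), and the comparison of the controls called 0 but 1 (Timp1) with no filter. The test of the difference called 4, between 3 and 4 with a library left out, and 2 at an adjusted p under 0.01. With the replicate block the counts were 7, 0, 3 and 0, Mmp3 dropping out of the difference (adjusted p = 0.0544), and correlations of same-numbered libraries were -0.096, -0.0432 and -0.136 in the Pkd1 line and 0.178, -0.054 and 0.148 in the Cep120 line. No estimate that turned its sign was called. For Pkd1 controls over Cep120 controls, Timp3 (main 0.01) was -0.002207 with upper quartile scaling, -0.002603 with a filter of 5 CPM in 3 libraries, -0.02348 with a detected-gene class term and -0.1047 to 0.09992 with a library left out, Mmp3 (main -0.23) was 0.117 without both replicate 3 controls and -1.914 to 0.3402 with a library left out, and Mmp11 (main 0.10) -0.01415 to 0.2208. For Cep120 KO over Cep120 controls, with the Xist term and with a library left out, Mmp14 was -0.04358 and -0.04635 to 0.3413, and Timp3 -0.02081 and -0.02546 to 0.1004. The cause was not tested. The log2 difference of the summed protease to inhibitor ratio was 0.8393 to 1.127 in the Pkd1 line and 0.146 to 0.3155 in the Cep120 line with a library left out. Mmp2-202 made up 3.94% of Mmp2 by counts in Pkd1 KO and 4.0% in Pkd1 controls, against 11.9% and 12.6% by TPM. Counts under 30 in the controls limit the folds of Mmp3 and Mmp7.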

Other observations

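Of the 27 matrix metalloproteinase and Timp genes looked up, 10 lie on mouse chromosome 9, among them Mmp3 and Mmp7. In the Pkd1 comparison 5 of the 10 could be tested, and edgeR called Mmp3 and Mmp7 higher, Mmp13 lower and Mmp8 and Mmp12 not at all, where 44.2% of all genes tested were called, 21.9% as higher and 22.3% as lower. Mmp13, collagenase 3, averaged 0.210 ± 0.187 CPM in Pkd1 KO and 0.886 ± 0.424 CPM in Pkd1 controls (SD, n = 3 each). Its estimate was -2.08 on the log2 scale (SE 0.789, adjusted p = 0.0465). That call rests on 8, 0 and 10 counts in Pkd1 KO 1 to 3 and 38, 20 and 11 counts in Pkd1 controls 1 to 3. Mmp13 was not followed over the other settings. Neither Mmp8, neutrophil collagenase (2.01 on the log2 scale, SE 0.841, adjusted p = 0.0666), nor Mmp12, macrophage elastase (0.23, SE 0.926, adjusted p = 0.86), passed. Mmp1a and Mmp1b had 0 counts in every library, and Mmp10, Mmp20 and Mmp27 were too low to be tested. These genes were picked for their chromosome after their values had been seen.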
